A study of Mus musculus with 24 samples.

Results

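The 7 genes described here encode the colony-stimulating factors of mononuclear phagocytes and granulocytes and the receptor chains through which they act: Csf1, Il34 and their receptor Csf1r, Csf2 with the receptor chains Csf2ra and Csf2rb, and Csf3. They were chosen by symbol, and all 7 stand among the 23955 symbols of the deposited raw counts. RNA was measured in whole mouse kidney by mRNA sequencing in 24 libraries, 4 in each of 6 groups. The groups were PLD4+/+ mice (wild type, WT) and PLD4-/- mice (labelled knockout, KO), each sampled as unobstructed controls (day 0) and after 5 or 10 days of UUO. UUO, unilateral ureteral obstruction, blocks a single ureter, and the kidney above it becomes inflamed and fibrotic. Strain, age, sex and the design of the Pld4 allele are not given in the labels, nor is it stated that replicates are separate animals, so p-values measure the spread between these libraries, which may be technical.

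The factors differ in what they do. CSF-1 (M-CSF) and IL-34 are unrelated in sequence but bind the same receptor tyrosine kinase, CSF1R, on which macrophages depend for survival and growth, and in the kidney CSF-1 is known as a product of tubular epithelium after injury. GM-CSF, the product of Csf2, binds the chain encoded by Csf2ra, which signals together with the beta chain encoded by Csf2rb. That beta chain also serves the receptors of IL-3 and IL-5. G-CSF, the product of Csf3, drives the formation and release of neutrophils through its own receptor, encoded by Csf3r.

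Total counts per library ran from 9800888 to 22542866. Levels are CPM, a gene's count scaled to a common library size with TMM factors, which corrects for RNA composition. Differences are log2 fold changes ± SE, tested in 15080 genes by the quasi-likelihood method of edgeR, and a gene is said to have risen or fallen where its adjusted p was under 0.05. Of the 7 genes, 6 passed the filter on low counts and Csf2 did not. Csf3 reached 10 counts in 4 libraries, 3 of WT day 10 and 1 of KO day 10, so its higher level at day 10 is in part built into its being tested.

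Pld4, the targeted gene, was counted in every library. At day 0 it averaged 6.69 ± 1.61 CPM (SD, n = 4) in wild type and 9.48 ± 2.48 CPM in knockout, a log2 difference of 0.50 ± 0.29 (adjusted p = 0.438) that does not separate the labels there. At day 5 it was 46.5 to 50.9 CPM in WT and 13.4 to 32.6 CPM in KO, and at day 10 it was 54.6 to 117 CPM in WT and 24.3 to 50.3 CPM in KO. The difference was -1.25 ± 0.27 at day 5 (adjusted p = 0.0724), which did not pass, and -1.13 ± 0.27 at day 10 (0.0331). Without WT day 10 replicates 2 and 3 these were -1.27 ± 0.24 (0.0164) and -0.74 ± 0.28 (0.715). WT day 10 replicates 2 and 3 stood apart: their summed level of 12 neutrophil markers was 4056 and 6535 CPM, against 14.1 and 17.5 CPM in replicates 1 and 4 and 1.03 to 17.2 CPM in the other 20 libraries. The same libraries held 6908 and 10729 CPM of 15 macrophage markers, against 1866 and 1708 CPM in replicates 1 and 4. Their proximal tubule markers summed to 296 and 1022 CPM, against 3202 and 9244 CPM in replicates 1 and 4, and markers of later nephron segments (loop, distal tubule, collecting duct) to 211 and 1241 CPM, against 2960 and 5572 CPM. Fibroblast markers summed to 9673 and 3595 CPM, against 2572 and 1549 CPM. Results in WT day 10 are therefore also given without these libraries.

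Csf1 was among the genes of the set that rose most in the obstructed kidney. In WT it was 7.95, 12.6, 10.3 and 11.4 CPM in replicates 1 to 4 at day 0, and 67.1, 57.0, 68.8 and 54.9 CPM at day 5. At day 10 it was 76.5, 105, 295 and 80.4 CPM. The groups did not overlap at any step, and replicate 3 of day 10 was far above the other 3. In KO, Csf1 was 20.4, 21.6, 12.7 and 23.8 CPM at day 0, then 81.9, 43.5, 76.1 and 66.9 CPM at day 5 and 71.3, 89.4, 93.5 and 95.9 CPM at day 10, with both UUO groups wholly above day 0 and overlapping each other. The rise from day 0 was 2.55 ± 0.34 at day 5 (adjusted p = 5.43e-06) and 3.72 ± 0.36 at day 10 (3.53e-08) in WT, and 1.78 ± 0.33 (0.000327) and 2.16 ± 0.34 (2.75e-05) in KO. The day 10 value in WT was 3.07 without replicate 3 and 2.92 ± 0.22 without replicates 2 and 3. Ordered by mean, Csf1 stood highest in WT day 10, followed by KO day 10, KO day 5 and WT day 5, each overlapping the next, then KO day 0 and WT day 0, which overlapped neither their neighbours nor each other.

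The bases just before the start of Csf1 are shown because this gene rose in every UUO group and because the genes whose profile over the 24 libraries lay nearest to its own included Nfkbie, an inhibitor of NF-kappaB. Likeness was the root mean square difference in log2 CPM after each gene was centred on its own mean, over 14212 genes, and it was 0.281 for Nfkbie. The next nearest were Apobec1 (0.295), an RNA-editing enzyme, Mlkl (0.301), the executor of necroptosis, Birc3 (0.304), an inhibitor of apoptosis, and C1s1 (0.305), a complement protease. The stretch is the 250 bases before the gene's start in RefSeq on build GRCm38.p6, chr3:107760470-107760719, minus strand, written 5′ to 3′ towards the gene, with a match to the NF-kappaB consensus in capitals.
Csf1, upstream: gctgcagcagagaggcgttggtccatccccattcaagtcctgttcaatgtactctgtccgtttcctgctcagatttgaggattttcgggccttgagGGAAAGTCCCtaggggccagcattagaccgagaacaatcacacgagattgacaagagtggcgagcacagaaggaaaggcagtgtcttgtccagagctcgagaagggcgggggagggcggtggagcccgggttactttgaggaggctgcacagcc
The match lies 154 to 145 bases before the start, its consensus reading on the strand opposite to the gene. A match on either strand to that consensus was found in 7.25% of 32851 RefSeq upstream stretches of the same length, so it is a description of these letters and not a site shown to be bound. The AP-1 motif TGANTCA, found in 6.75% of the stretches, and the PU.1 core GAGGAA, found in 23.3%, were also searched on both strands, and neither occurred in the Csf1 stretch. Upstream sequences were held for 3 of the 7 genes, Csf1, Csf2 and Csf2ra. The only matches found in them were this one and the PU.1 core in Csf2ra, with none in Csf2.

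**Figure D1:**
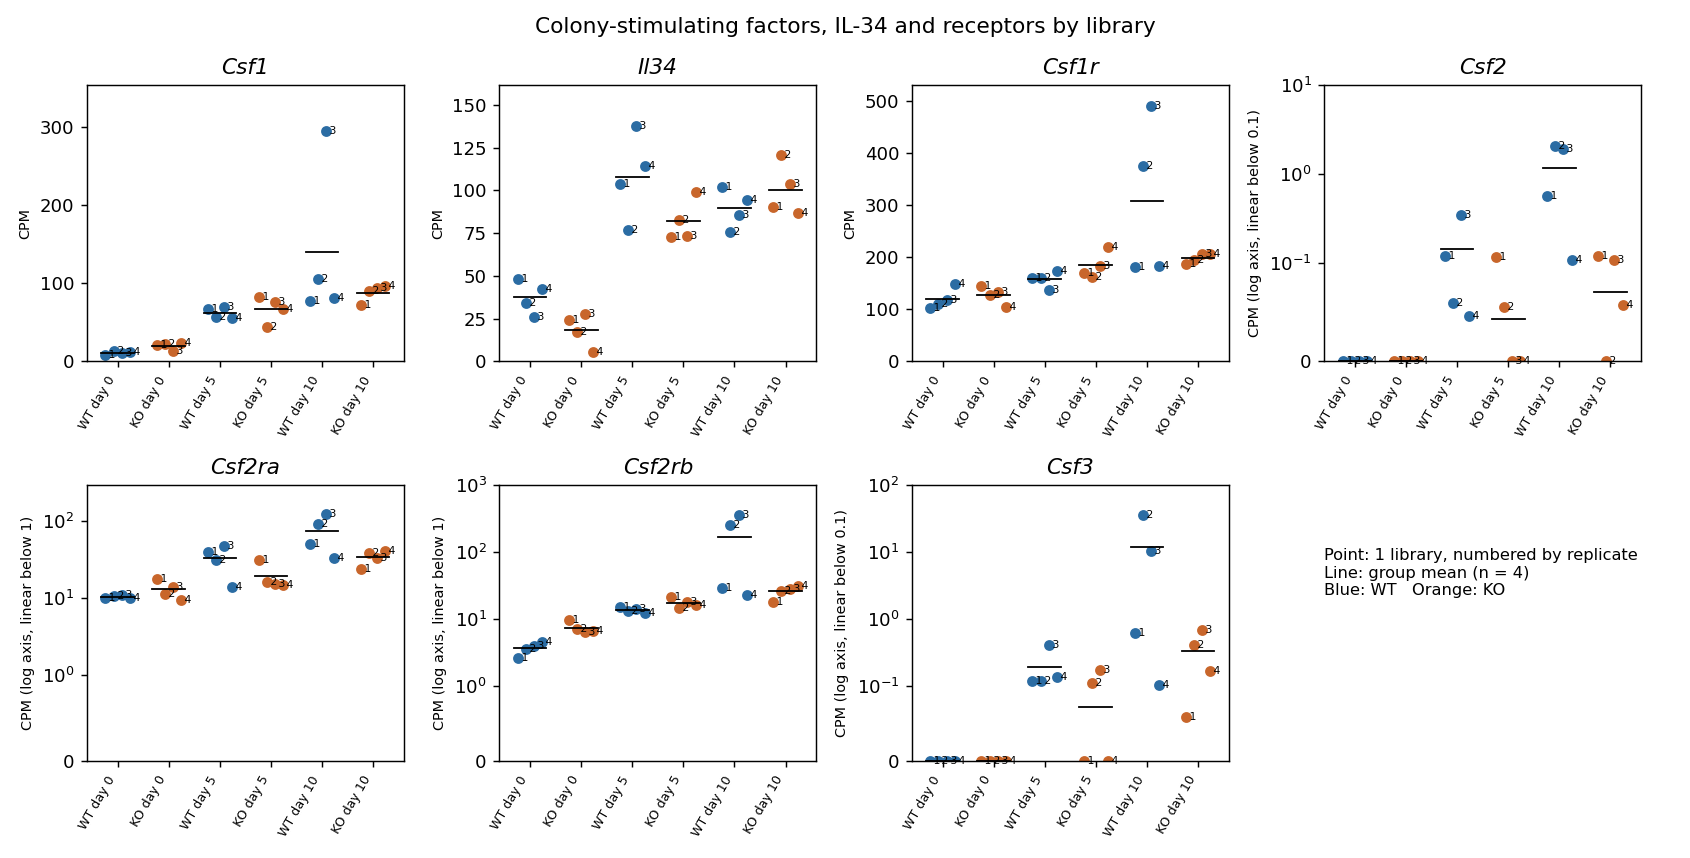
Level of each of the 7 genes in every library, in CPM, by group, with points numbered by replicate and a line at each group mean (n = 4). The axes of Csf1, Il34 and Csf1r are linear from 0, and those of the other genes are logarithmic above the value given on the axis. Csf1 at day 0 lies below all UUO libraries, Csf2 and Csf3 are at 0 in all day 0 libraries, and WT day 10 replicates 2 and 3 are the highest for Csf1r, Csf2, Csf2ra, Csf2rb and Csf3.

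Il34 followed another course. In WT it was 48.2, 34.3, 26.0 and 42.2 CPM at day 0, 104, 76.7, 137 and 114 CPM at day 5 and 102, 75.8, 85.8 and 94.2 CPM at day 10. All obstructed libraries were above all day 0 libraries, and the 2 UUO days overlapped. In KO it was 24.4, 16.8, 27.5 and 5.30 CPM at day 0, 72.9, 82.8, 73.3 and 99.2 CPM at day 5 and 90.5, 121, 104 and 86.7 CPM at day 10, again with no overlap between day 0 and UUO. The rise was 1.52 ± 0.31 at day 5 (adjusted p = 0.000356) and 1.25 ± 0.31 at day 10 (0.00116) in WT, and 2.15 ± 0.32 (2.59e-05) and 2.44 ± 0.32 (4.01e-06) in KO. Unlike Csf1, Il34 was not high in WT day 10 replicates 2 and 3, which held the lowest and the second lowest value of their group, and its rise at day 10 was 1.41 ± 0.36 without them. By mean, the order was WT day 5, KO day 10, WT day 10 and KO day 5, each overlapping the next, then WT day 0 and KO day 0, which overlapped each other.

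The gene whose profile was most like that of Il34 was Cpe, a carboxypeptidase that trims peptide hormones, at 0.331. The next were Cldn3 (0.506), a tight junction claudin, Ppm1j (0.515), a phosphatase, Rundc3a (0.517) and Tnfrsf12a (0.518), the receptor of the cytokine TWEAK. No gene other than Cpe came within 0.5 of Il34, while for Csf1 all 5 nearest genes lay within 0.305.

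The 2 ligands can be compared per length in the authors' deposited FPKM values (fragments scaled to transcript length and library depth). Il34 was the more abundant in 22 of the 24 libraries. Its level divided by that of Csf1 was 8.18 ± 3.61 (SD, n = 4) in WT day 0, 3.78 ± 0.85 in WT day 5 and 1.99 ± 1.04 in WT day 10, where replicates 1 and 4 were at 2.92 and 2.71 and replicates 2 and 3 at 1.66 and 0.674. In KO the ratio was 2.42 ± 1.81 at day 0, 2.94 ± 1.08 at day 5 and 2.64 ± 0.43 at day 10. WT day 0 lay above every other group without overlap, while the 3 KO groups overlapped. The 2 libraries with more Csf1 than Il34 were KO day 0 replicate 4, at a ratio of 0.521, and WT day 10 replicate 3, at 0.674.

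**Figure D2:**
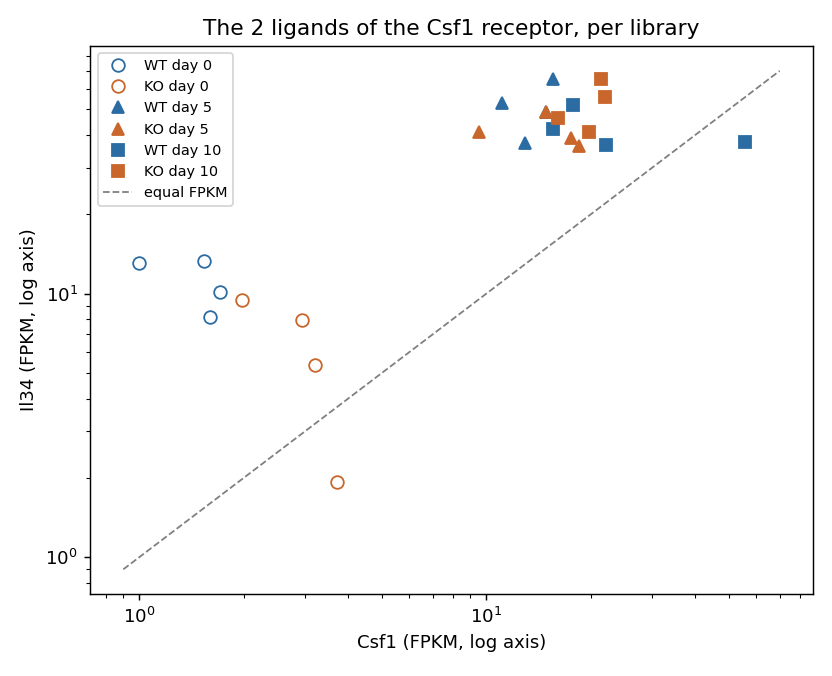
Il34 against Csf1 in the authors' deposited FPKM values, 1 point per library, both axes logarithmic, with blue for WT, orange for KO and open circles for day 0, and a dashed line where both are equal. WT day 0 lies far to the left at 1.00 to 1.71 FPKM of Csf1, and 2 libraries lie below the line, 1 of KO day 0 and 1 of WT day 10.

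Within a library, log2 CPM of Csf1 minus that of Il34 does not depend on how libraries are scaled against each other. It was -1.80 ± 0.57 (SD, n = 4) in WT day 0, -0.78 ± 0.30 in WT day 5 and 0.40 ± 0.99 in WT day 10, and these 3 groups did not overlap. WT day 10 replicates 1 and 4, at -0.413 and -0.229, had the opposite sign to replicates 2 and 3 and a mean of -0.32, and the lowest of the group was barely above the highest of WT day 5, -0.428. In KO it was 0.28 ± 1.38 at day 0, -0.32 ± 0.52 at day 5 and -0.19 ± 0.26 at day 10, and these overlapped. KO day 0 lay 2.09 above WT day 0 without overlap. Among the 27 exact two-sided permutation tests of such differences (3 measures in 9 pairs of groups), 14 including these had the smallest p that 4 against 4 can give, 0.0286, which adjusts to 0.0551, so none passed.

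Csf1r, the receptor of both ligands, differed less between groups than its ligands. In WT it was 103, 110, 117 and 149 CPM at day 0, 159, 161, 138 and 173 CPM at day 5 and 181, 374, 491 and 184 CPM at day 10. Day 0 and day 5 overlapped, and at day 10 replicates 2 and 3 stood far above replicates 1 and 4, which lay just above the day 5 range. In KO it was 144, 128, 133 and 103 CPM at day 0, 170, 162, 184 and 220 CPM at day 5 and 187, 195, 206 and 206 CPM at day 10. In KO both UUO groups lay above day 0 without overlap. The rise passed at day 10, at 1.37 ± 0.23 in WT (adjusted p = 3.42e-05) and 0.64 ± 0.23 in KO (0.0236), and the KO value was 0.55 and did not pass without KO day 0 replicate 4 (adjusted p = 0.072). At day 5 the difference was 0.40 ± 0.23 in WT (0.147) and 0.53 ± 0.23 in KO (0.0721). Without WT day 10 replicates 2 and 3 the model has a smaller spread, and all 4 differences passed at 0.44 ± 0.13, 0.64 ± 0.15, 0.54 ± 0.13 and 0.65 ± 0.13 for WT day 5, WT day 10, KO day 5 and KO day 10.

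The size of the Csf1r rise depended on the scale. On the log2(FPKM + 1) scale, with limma, it was 1.01 at day 5 in WT (adjusted p = 0.000422) and 1.08 in KO (0.000265), on a scale where the median of all genes moved by 0.53 and 0.47. On the count scale the median gene moved by 0.08 and 0.01. Part of the larger Csf1r value on the FPKM scale is thus shared by the median gene.

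Beside other macrophage genes of the same library, Csf1r was lower in every UUO group than at day 0, though no such difference passed after adjustment. The macrophage score is the mean log2 CPM of 15 markers (Csf1r is not one of them), whose summed level was 163 to 208 CPM in WT day 0, 371 to 519 in KO day 0, 1241 to 1435 in WT day 5, 1576 to 1864 in KO day 5, 1708 to 10729 in WT day 10 and 1575 to 2267 in KO day 10. Csf1r minus this score was 4.25 ± 0.27 (SD, n = 4) in WT day 0 and 2.82 ± 0.35 in KO day 0. After obstruction it was 1.35 ± 0.08 in WT day 5, 1.35 ± 0.19 in KO day 5, 0.94 ± 0.40 in WT day 10 (1.28 in replicates 1 and 4) and 1.21 ± 0.14 in KO day 10. Neither genotype's UUO groups overlapped its day 0, and WT day 0 did not overlap KO day 0, with exact permutation p = 0.0286 and adjusted p = 0.0551 for each of these 5 differences. In whole kidney, a change in the number of cells of a type and a change in RNA per cell cannot be told apart.

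**Figure D3:**
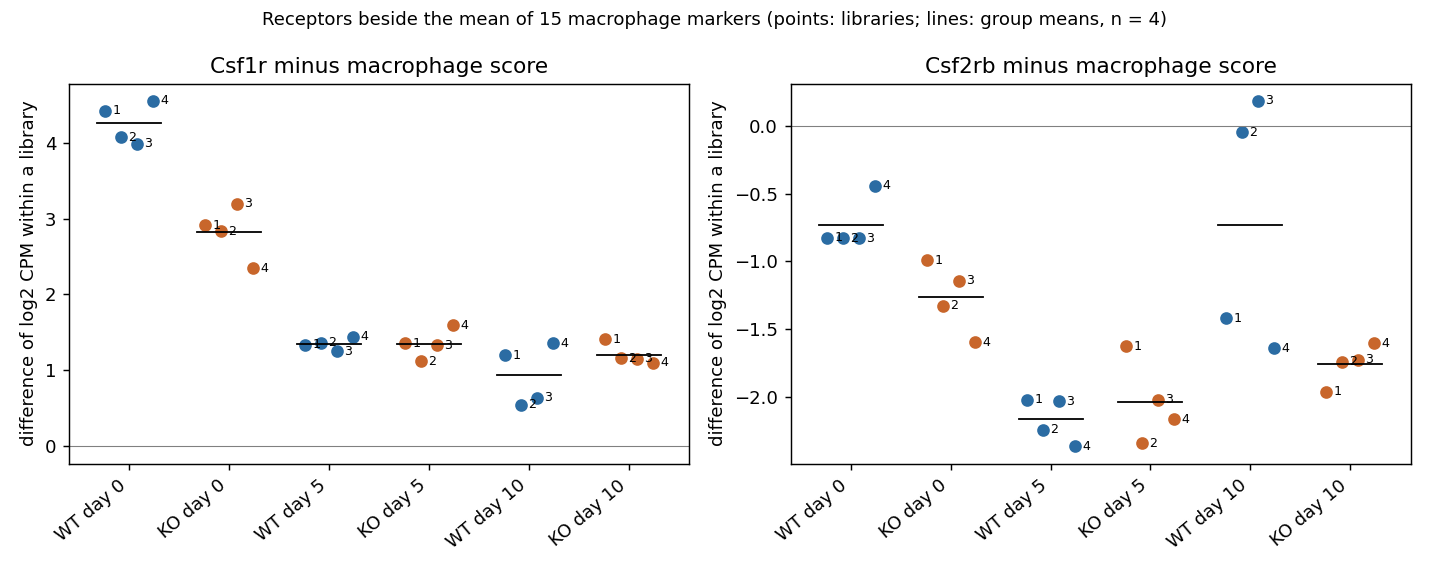
Csf1r (left) and Csf2rb (right) minus the mean of 15 macrophage markers within each library, on the log2 CPM scale, by group, with points numbered by replicate and lines at group means (n = 4). The mean for Csf1r is 4.25 in WT day 0 and 0.94 in WT day 10, while Csf2rb in WT day 10 splits into replicates 2 and 3 near 0 and replicates 1 and 4 at -1.42 and -1.64.

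Profiles most like that of Csf1r belonged to genes of mixed function: Foxn2 (0.183), a forkhead factor, Atp13a2 (0.189), a lysosomal transporter, Adam17 (0.199), the protease that sheds TNF and also CSF1R from the cell surface, Dennd4a (0.201) and Ralgds (0.202). The root mean square of Csf1r itself about its mean was 0.510, against 1.30 for Csf1 and 1.61 for Csf2rb, so distances to Csf1r are small for any gene with a flat profile.

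Csf2, which encodes GM-CSF, was barely measured. No count fell on it in any of the 8 day 0 libraries, where 3 counts over a group, the limit that a count of 0 allows, correspond to 0.0650 CPM in WT and 0.0652 CPM in KO. At day 5 it had 2, 1, 5 and 1 counts in WT and 2, 1, 0 and 0 in KO. At day 10 it had 12, 41, 32 and 2 counts in WT and 2, 0, 2 and 1 in KO. Pooled over 4 libraries it was at least 17.5-fold higher in WT day 10 than in WT day 0, or at least 5.38-fold from replicates 1 and 4 alone. KO day 10 had 0.0626 times the pooled level of WT day 10 (95% counting interval 0.0198 to 0.152), and replicates 1 and 4 of WT day 10 alone had 4.91 times that of KO day 10 (1.67 to 17.4), where 12 of the 14 counts were in replicate 1. These intervals cover counting error only. With no filter on low counts the difference at day 10 passed for Csf2 (adjusted p = 0.047).

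Csf2ra, the chain specific to GM-CSF, rose in WT by 1.68 ± 0.38 at day 5 (adjusted p = 0.000925) and 2.85 ± 0.39 at day 10 (2.58e-06), or 2.04 ± 0.36 at day 10 without replicates 2 and 3. In KO it rose by 1.38 ± 0.37 at day 10 (0.00395), and at day 5 the difference was 0.56 ± 0.37 (0.235). In WT it was 10.2, 10.7, 10.9 and 10.2 CPM at day 0, 40.4, 31.8, 48.4 and 14.2 CPM at day 5 and 51.2, 91.4, 126 and 33.9 CPM at day 10. The WT day 0 libraries lay within 1 CPM of each other, and replicate 4 was the lowest of both UUO days. In KO it was 18.03, 11.5, 14.0 and 9.50 CPM at day 0, 31.6, 16.3, 15.4 and 14.99 CPM at day 5 and 24.3, 38.5, 33.4 and 41.9 CPM at day 10. In KO, 3 of the 4 day 5 libraries lay within the range of day 0, and day 10 lay wholly above it. The interaction, that is the KO response minus the WT response, was -1.12 ± 0.52 at day 5 (adjusted p = 0.354), so a difference between the genotypes in the day 5 response was not shown. Nearest in profile were Znrf1 (0.311), a ubiquitin ligase, Dok3 (0.319), an adaptor of myeloid and B cells, Tcirg1 (0.324), a proton pump subunit, Arrb2 (0.327), a beta-arrestin, and Tpcn2 (0.344), a lysosomal channel.

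Csf2rb, the shared beta chain, ranged more widely than Csf1r or Csf2ra. In WT it was 2.59, 3.57, 4.04 and 4.55 CPM at day 0, 15.4, 13.1, 14.0 and 12.2 CPM at day 5 and 29.5, 248, 357 and 22.8 CPM at day 10. The 3 days did not overlap, and replicates 2 and 3 of day 10 were far above replicates 1 and 4. In KO it was 9.53, 7.04, 6.47 and 6.62 CPM at day 0, 21.4, 14.6, 17.9 and 16.1 CPM at day 5 and 18.04, 26.1, 27.9 and 31.6 CPM at day 10. Both UUO groups lay above KO day 0, and overlapped. The rise in WT was 1.89 ± 0.59 at day 5 (adjusted p = 0.0107) and 5.48 ± 0.65 at day 10 (4.98e-07), the latter 2.85 ± 0.22 without replicates 2 and 3. In KO the difference was 1.24 ± 0.56 at day 5 (0.0846), and at day 10 Csf2rb rose by 1.80 ± 0.57 (0.0108). Without those 2 libraries the KO day 5 rise passed too, at 1.25 ± 0.19 (adjusted p = 2.02e-05).

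The mouse has a close copy of this gene, Csf2rb2, whose product serves IL-3 alone. Of the 50-base words in the Csf2rb transcripts, 17.1% also occur in those of Csf2rb2, so counts could be split between them and each is uncertain. Csf2rb2 was also among the 5 genes with the nearest profile, at 0.375, beside Ccdc88b (0.350), Slc15a3 (0.368), a lysosomal histidine transporter, Apobr (0.378) and Plek (0.383), the pleckstrin of blood cells. Csf2rb minus the macrophage score was -0.73 ± 0.19 (SD, n = 4) in WT day 0 and -2.16 ± 0.17 in WT day 5, 1.43 lower without overlap (exact permutation p = 0.0286, adjusted p = 0.0551). In KO it was -1.26 ± 0.26 at day 0, -2.04 ± 0.30 at day 5 and -1.76 ± 0.15 at day 10. In WT day 10 it was -1.42 and -1.64 in replicates 1 and 4, above and within the KO day 10 range of -1.96 to -1.60, and -0.05 and 0.18 in replicates 2 and 3.

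Csf3, which encodes G-CSF, was counted almost wholly in a pair of libraries. It had no count in the 8 day 0 libraries, 2, 2, 6 and 3 counts in WT day 5 and 0, 2, 3 and 0 in KO day 5. At day 10 it had 13, 699, 174 and 2 counts in WT, or 0.62, 35.4, 10.5 and 0.11 CPM, and 1, 7, 13 and 3 counts in KO. Replicates 2 and 3 held all but 15 of these WT counts. Pooled, Csf3 was at least 179-fold higher in WT day 10 than in WT day 0 (adjusted p = 0.000536), and at least 5.76-fold from replicates 1 and 4 alone. That adjusted p is from edgeR, and the higher level at day 10 is in part built into Csf3 being tested. Against WT day 5, Csf3 was 62.8 times as high (95% counting interval 36.5 to 118), and 2.03 times (0.90 to 4.63) from replicates 1 and 4. KO day 10 held 0.0294 times the pooled level of WT day 10 (0.0188 to 0.0441), and replicates 1 and 4 of WT day 10 held 1.10 times that of KO day 10 (0.534 to 2.18).

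Csf3 and the neutrophil markers were highest in the same libraries. The 12 neutrophil markers found in the counts (of 13 listed) include Camp, Elane and Mpo, which were at 0 in both day 0 groups. Csf3r, the G-CSF receptor, carried chiefly by neutrophils and other myeloid cells, was 18.6, 289, 496 and 12.5 CPM in WT day 10 and 8.11, 14.2, 13.8 and 18.4 CPM in KO day 10. Replicates 2 and 3 were again far above the rest, with Csf3r higher in replicate 3 and Csf3 higher in replicate 2. How far neutrophil RNA enters the levels of Csf3, Csf2rb and Csf1 in these libraries was not tested. The profile nearest to that of Csf3 was Ppp1r3b (0.762), a glycogen phosphatase subunit, followed by Pglyrp1 (0.767), a neutrophil granule protein, Rab44 (0.795), Emilin2 (0.814) and Rdh12 (0.821).

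**Figure D4:**
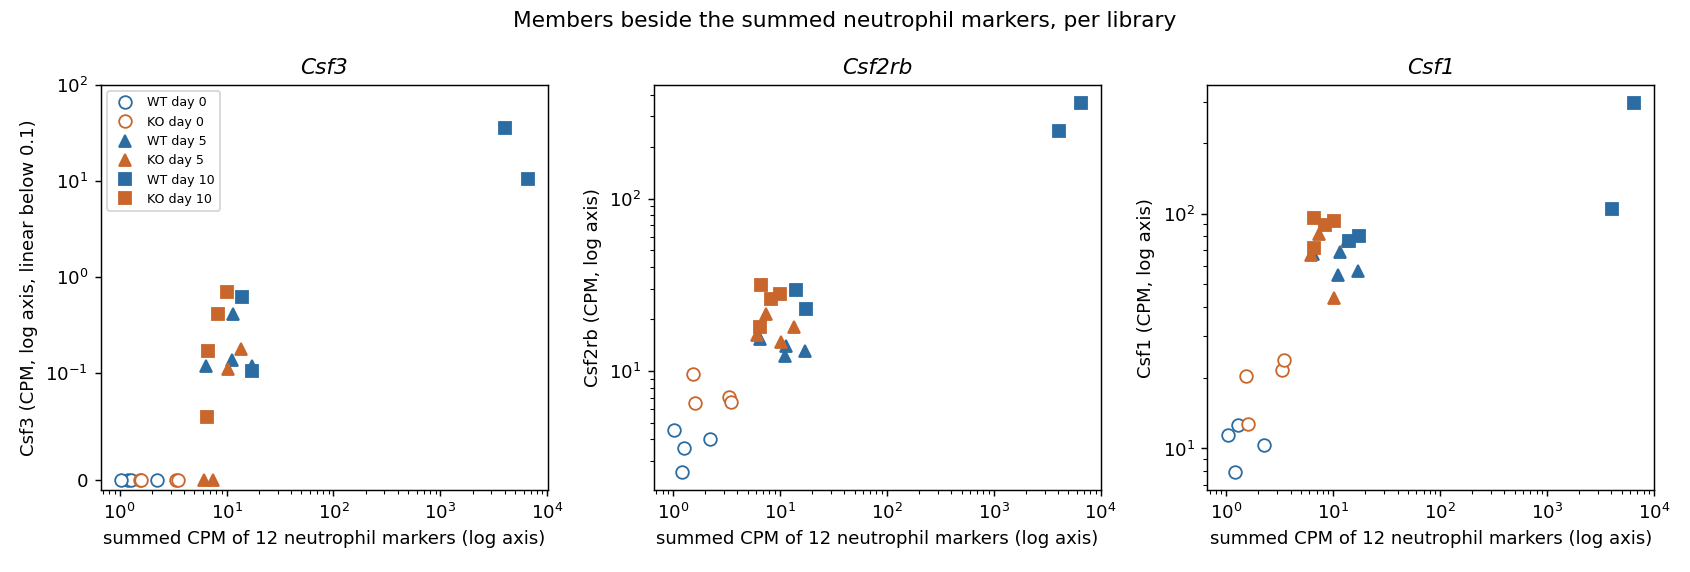
Csf3, Csf2rb and Csf1 in CPM against the summed CPM of 12 neutrophil markers, 1 point per library, both axes logarithmic (Csf3 linear below 0.1), with blue for WT, orange for KO, open circles for day 0, triangles for day 5 and squares for day 10. The points at the far right, at 4056 and 6535 CPM of neutrophil markers, are WT day 10 replicates 2 and 3, and for Csf1 replicate 2 stands only slightly above the other UUO libraries.

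Of the 6 genes tested, none fell in any UUO comparison with day 0. Over all 15080 genes, 3863 and 4567 were called lower in WT at days 5 and 10, and 2570 and 3925 in KO. In WT, 4 of 6 rose at day 5, where 31.0% of all genes were called higher, and 6 of 6 rose at day 10, where 37.8% were. The 6 at day 10 include Csf3, whose higher level there is in part built into its being tested. All the other genes tested rose as well. In KO, 2 of 6 rose at day 5 (background 22.4%) and 5 of 6 at day 10 (28.3%), the former a share near the background. The median log2 fold change of the 6 was 1.78, 3.28, 1.51 and 1.98 in these comparisons, against 0.08, 0.12, 0.01 and 0.04 over all genes. Without WT day 10 replicates 2 and 3, 6, 6, 4 and 6 of the 6 rose, with backgrounds of 35.2%, 32.4%, 26.1% and 31.3%, and the medians were 1.82, 2.45, 1.52 and 1.99. The fitted fold change of Csf3 against day 0, where it had no count, depends on the prior count. With Csf3 at the bound that 3 counts give, the 4 medians were 1.60, 3.28, 0.90 and 1.98, and 1.64, 2.29, 0.91 and 1.99 without those libraries. With Csf3 left out they were 1.68, 2.85, 1.24 and 1.80 over the 24 libraries. Csf3 was among those added in WT day 5, with Csf1r, and was the gene added in KO day 10, on 13 and 24 counts in all.

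**Figure D5:**
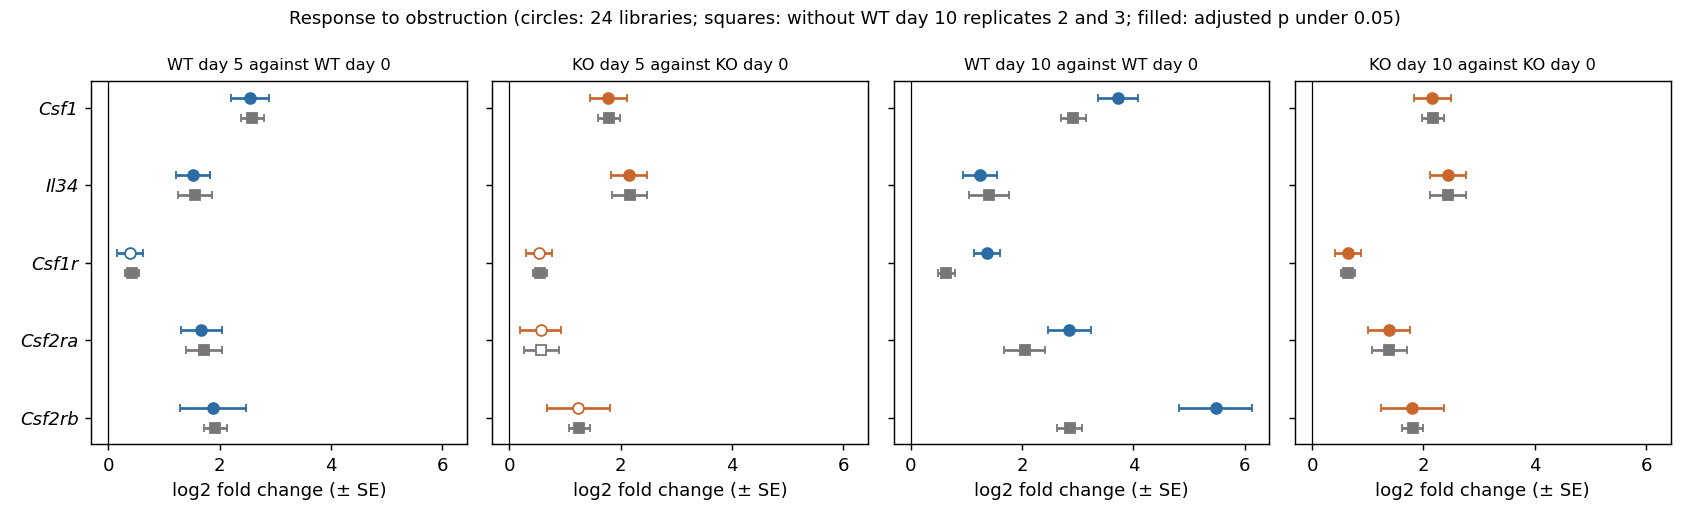
Log2 fold change ± SE of 5 genes at each UUO day against day 0 of the same genotype, on 1 shared horizontal axis; circles use 24 libraries, squares leave out WT day 10 replicates 2 and 3, and filled symbols have an adjusted p under 0.05. The 2 fits lie close together except in WT day 10, where Csf2rb goes from 5.48 to 2.85 and Csf1r from 1.37 to 0.64.

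Between day 5 and day 10 in WT, 5 of 6 rose, where 7.86% of all genes were called higher. Csf2rb rose by 3.59 ± 0.58 (adjusted p = 0.00425), Csf1 by 1.17 ± 0.32 (0.0249), Csf2ra by 1.17 ± 0.36 (0.0415) and Csf1r by 0.97 ± 0.23 (0.0132), and Csf3 also passed (0.0152), while Il34 differed by -0.27 ± 0.30 (0.582). For Csf3 the higher level at day 10 is in part built into its being tested. All 5 were lost without WT day 10 replicates 2 and 3, a fit in which 0 of 15294 genes were called in this comparison. The values there were 0.92 for Csf2rb, 0.33 for Csf1, 0.33 for Csf2ra and 0.20 for Csf1r. Single libraries were enough for 4 of them: Csf1 was at 0.48 without WT day 10 replicate 3, Csf1r at 0.85 and 0.63 without replicate 2 or 3, and Csf2ra at 1.05 and 0.79, and Csf3 was lost without replicate 2. Leaving out a WT day 5 library also lost Csf1 (without any of the 4, at 1.09 to 1.21), Csf2ra (without replicate 1, 2 or 4, at 0.89 to 1.25) and Csf3 (without replicate 2). In KO none of 6 differed between the days, where 0.0199% of all genes were called. There 1 of 6 had an unadjusted p under 0.05, and DESeq2 also called none. The share of all genes under the unadjusted cut is not given here, so that count has no background to be read against.

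At day 0, where Csf3 had no counts, none of the other 5 genes tested differed between KO and WT, where 4.18% of all genes were called in either direction, and 2 had an unadjusted p under 0.05. The 4.18% does not refer to that unadjusted cut, for which the share of all genes is not given. DESeq2 called 1, Il34. The ranges of Csf1 and Csf2rb did not overlap, with every KO library above every WT library. The share of all genes that separate in this way is not given here, so whether such separation is unusual cannot be told. The differences were 0.89 ± 0.34 for Csf1 (adjusted p = 0.167) and 1.01 ± 0.61 for Csf2rb (0.465), and Il34 was at -1.03 ± 0.31 (0.0656). Without WT day 10 replicates 2 and 3, which are in neither group but shape the estimate of spread, the filter and the scaling, Csf1 and Csf2rb passed, at 0.90 ± 0.20 (0.00487) and 1.02 ± 0.21 (0.00215), with a background of 8.33%. Without KO day 0 replicate 3, Il34 passed at -1.29 (0.0261), and the DESeq2 adjusted p was 0.0191. The summed macrophage markers of the same libraries were 163 to 208 CPM in WT and 371 to 519 CPM in KO, also without overlap, and those of 9 dendritic cell markers were 52.7 to 140 and 252 to 615 CPM. Sums of T cell and innate lymphoid markers (95.7 to 123 and 146 to 170 CPM) and of endothelial markers (266 to 360 and 437 to 579 CPM) did not overlap either. Adipocyte markers were lower in KO without overlap (0.516 to 6.37 and 0.0762 to 0.467 CPM). Every other marker list overlapped, among them neutrophil (1.03 to 2.24 and 1.55 to 3.50 CPM) and fibroblast markers (185 to 339 and 230 to 426 CPM). The part of these cell types in the differences was not tested.

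At day 5, none of the 6 differed between KO and WT, where 0.146% of all genes were called, and 1 of 6 had an unadjusted p under 0.05. Again the share of all genes under the unadjusted cut is not given. Csf2ra was at -0.78 ± 0.36 (adjusted p = 0.345), and at -1.06 it passed without WT day 5 replicate 4 (0.0467), the library with the lowest value of its group. DESeq2 called none. The interaction at day 5 called none of the 5 genes with a count at day 0 either, by edgeR or DESeq2, with 0.564% of all genes called and 1 of 5 at an unadjusted p under 0.05. That last count also has no share of all genes beside it.

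At day 10, 1 of 6 was lower in KO, where 1.27% of all genes were called lower. This was Csf2rb, at -2.67 ± 0.56 (adjusted p = 0.017). With a term for the replicate number it was -2.45 and did not pass (adjusted p = 0.0705). It was -0.03 ± 0.21 (adjusted p = 1) without WT day 10 replicates 2 and 3, and Csf1, Il34, Csf1r and Csf2ra were then at 0.15, 0.02, 0.11 and -0.31. The call was also lost without replicate 2 alone (-2.41) or replicate 3 alone (-1.95), and without any single KO day 10 library (-2.53 to -2.78). Csf3 missed the threshold (0.0643) and passed without WT day 10 replicate 1 (0.0102) or 4 (0.0036), as did Csf1r at -0.82 in each case and Csf2ra at -1.28 and -1.38. The higher Csf3 level in WT day 10 is in part built into its being tested, so its passing here is not independent of the filter. For Csf1 and Csf2rb, WT replicates 1 and 4 lay within the KO range.

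The interaction at day 10 called 1 of these 5 lower, with 3.12% of all genes called lower. The Csf2rb response was smaller in KO by 3.68 ± 0.82 on the log2 scale (adjusted p = 0.0145, and 0.0349 with a term for the replicate number), and without WT day 10 replicates 2 and 3 the value was -1.04 ± 0.29 (0.107). It was -2.97 without replicate 3 alone and passed (0.0341). Csf1 was at -1.56 ± 0.46 (0.0694) and at -0.75 without both libraries, and it passed without WT day 10 replicate 1 (-1.78) or 4 (-1.77) or KO day 0 replicate 3 (-1.72). Without WT day 10 replicate 4, Csf1r (-0.92) and Csf2ra (-1.72) passed as well. For Il34 the interaction had the other sign, 1.19 ± 0.43 (0.151). No interaction could be estimated for Csf3 or Csf2, which were at 0 in both day 0 groups.

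Genes around these factors were counted by list. Of 12 related ligands and receptors, 10 were tested; Il3 and Il5 did not pass the filter. In WT, 5 rose at day 5 and 6 at day 10, and in KO 2 rose and 1 fell at day 5 and 7 rose at day 10, with list medians of 1.11, 1.68, 0.56 and 1.21. All genes were called higher at 31.0%, 37.8%, 22.4% and 28.3% in these comparisons, so 2 of 10 in KO day 5 is near the background. In KO day 5, 2570 of all 15080 genes were called lower. At day 10 in WT, Csf3r rose by 7.70 ± 0.94 (4.01 ± 0.31 without replicates 2 and 3), Csf2rb2 by 4.47 ± 0.60 (2.17 ± 0.27), Il3ra, the IL-3 receptor alpha chain, by 3.12 ± 0.35 (2.36 ± 0.30), Sdc1, a proteoglycan that also binds IL-34, by 2.94 ± 0.42 (1.51 ± 0.23), Flt3, a receptor of dendritic cell precursors, by 1.74 ± 0.33 (2.32 ± 0.25), and its ligand Flt3l by 1.61 ± 0.23 (1.55 ± 0.25). Ptprz1, another binding partner of IL-34, was at 1.26 ± 0.58 (adjusted p = 0.0591), Il5ra at 0.12 ± 0.41, and stem cell factor, Kitl, and its receptor Kit were at 0.25 ± 0.22 and 0.26 ± 0.15, none of which passed. Kit was the gene that fell in KO at day 5, by 0.47 ± 0.15 on the log2 scale. In KO, Il3ra rose at both days and Flt3l, Flt3, Csf3r, Csf2rb2, Sdc1 and Il5ra were among those that passed at day 10.

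At day 0 Flt3l was higher in KO by 1.02 ± 0.23 (adjusted p = 0.0123). Csf3r was 0.692 to 1.52 CPM in WT and 2.89 to 4.38 CPM in KO at day 0, a difference of 1.85 ± 0.93 (0.355). At day 10 Csf3r (-3.91 ± 0.73, 0.0121) and Csf2rb2 (-2.33 ± 0.53, 0.0277) were lower in KO, and both were lost with a term for the replicate number (-3.54, 0.0597 and -2.07, 0.0841). Without WT day 10 replicates 2 and 3 they were at -0.20 and -0.01. The Csf3r interaction at day 10 was -5.75 ± 1.15 (0.0101) and passed without those libraries as well, at -2.06 ± 0.40 (0.013), where Csf3r at day 0 was also higher in KO (1.86 ± 0.30, 0.000201).

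Of 26 genes of signal transduction behind these receptors, 16 rose at day 5 and 22 at day 10 in WT, and 15 at each day in KO, and none fell, where 31.0%, 37.8%, 22.4% and 28.3% of all genes were called higher. Called lower in the same order were 3863, 4567, 2570 and 3925 of all 15080 genes. At day 10 in WT the 4 genes with the lowest adjusted p were Socs3, a feedback inhibitor of cytokine receptors induced by STAT3 (7.08 ± 0.57), Pik3cd, a leukocyte PI3 kinase (3.84 ± 0.34), Inpp5d, the phosphatase SHIP-1 (3.28 ± 0.31), and Stat3 (1.61 ± 0.15). Without replicates 2 and 3 they rose by 5.41, 2.90, 2.26 and 1.38, and the list count was 18 (background 32.4%). In KO at day 10 the same 4 rose by 4.32, 1.88, 1.13 and 1.18. Syk, a kinase of immune receptors, and Dok2, an adaptor that dampens cytokine signalling, were lower in KO at day 10, at -2.04 ± 0.46 (adjusted p = 0.0264) and -1.82 ± 0.41 (0.0273), and at 0.01 and -0.77 without those libraries. In the day 10 interaction 9 of the 26 passed, all with a smaller response in KO (background 3.12%). Without those libraries 4 passed, where 153 of all 15294 genes were called in either direction. The interaction also takes in the day 0 difference. At day 0, 2 of 26 were higher in KO, where 550 of all 15080 genes were. Without those libraries it was 10 of 26, where 1076 of 15294 genes were higher. At day 10 itself 2 of 26 were lower in KO (background 1.27%).

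Of 16 transcription factors of the phagocyte lineage, 15 were tested, and 13 rose and 1 fell at day 10 in WT (11 and 1 without replicates 2 and 3), against 11 and 2 in KO, where the background of genes called higher was 37.8% (32.4% without those libraries) and 28.3%. Over all 15080 genes, 4567 were called lower at day 10 in WT and 3925 in KO. Spi1, which encodes PU.1, the factor known to switch on Csf1r and Csf2ra, rose by 5.01 ± 0.51 in WT and 2.01 ± 0.44 in KO at day 10, and in WT by 3.36 ± 0.26 without those libraries. Runx1 rose by 5.13 ± 0.43 and 3.42 ± 0.39, Egr2 by 6.46 ± 0.60 and 4.90 ± 0.53, and Irf8 by 2.35 ± 0.25 and 1.26 ± 0.24. In WT without those libraries these 3 rose by 4.45 ± 0.37, 5.99 ± 0.59 and 1.72 ± 0.15. None of the list differed between genotypes at day 10, with Cebpb at -1.98 ± 0.50 (adjusted p = 0.0523) and Egr1 at 1.36 ± 0.44 (0.133). The Csf2ra stretch upstream of its RefSeq start held the PU.1 core GAGGAA 2 times, 14 to 9 and 8 to 3 bases before the start. That core occurs in 23.3% of all upstream stretches searched, so these are matches of letters and not sites shown to be bound.

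Of 12 inducers of the factors, 9 were tested. In WT, 6 rose at day 5 and 9 at day 10, and in KO 6 and 7, with medians of 2.27, 3.87, 1.23 and 1.68 and backgrounds of 31.0%, 37.8%, 22.4% and 28.3%. In the day 10 interaction 5 of 9 passed with a smaller response in KO (background 3.12%). Without WT day 10 replicates 2 and 3 the count was 0, where 153 of all 15294 genes were called in either direction. The interaction also takes in the day 0 difference, where the 9 had a median of 0.97 (KO minus WT) and none passed. Without those libraries 6 of 10 were higher in KO at day 0, where 1076 of 15294 genes were. At day 10 itself 1 of 9 was lower in KO (background 1.27%). The NF-kappaB subunits Relb, Nfkb1 and Nfkb2 rose at day 10 by 3.50 ± 0.25, 2.02 ± 0.17 and 2.67 ± 0.23 in WT and by 2.70 ± 0.24, 1.28 ± 0.17 and 2.08 ± 0.23 in KO. In WT without replicates 2 and 3 they rose by 3.24, 1.58 and 2.16. Il33, an alarm cytokine of stromal and epithelial cells, rose by 3.96 ± 0.44 in WT (2.53 ± 0.24 without those libraries) and 1.64 ± 0.40 in KO. Il1b and Tnf, which induce Csf2 and Csf3 in many cell types, rose at day 10 in WT by 8.95 ± 1.40 and 7.27 ± 1.09, and by 2.85 ± 0.62 and 4.13 ± 0.64 without replicates 2 and 3. In KO Il1b rose by 2.81 ± 1.08, and Tnf was at 1.39 ± 0.81 (adjusted p = 0.155). Il1b was lower in KO at day 10 (-4.25 ± 1.05, 0.0434) and at 1.87 ± 0.57 (0.282), the opposite sign, without those libraries, while Tnf was at -2.85 ± 0.76 (0.0676) and 0.30.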

How the data were processed

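RNA was measured in 24 kidney libraries from 1 ug of TRIzol-extracted total RNA with a stranded mRNA kit, per the labels' protocols. The submitters' processing notes name bcl2fastq 2.16, STAR 2.5, Cufflinks and the mm9 genome. The authors deposited raw counts per gene (23955 symbols) and FPKM values per gene (23953 symbols). The counting tool, its annotation and its use of strand are not given in the sources used here, so reads shared by overlapping or antisense genes could not be assigned.

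The deposited counts were filtered with filterByExpr of edgeR 4.0.16 (minimum count 10, minimum total 15, 15080 genes), scaled by TMM and fitted with 6 group means over 24 libraries (18 residual degrees of freedom, robust quasi-likelihood test, R 4.3.3). In each of 11 comparisons p-values of all genes tested were adjusted by Benjamini-Hochberg, with a threshold of 0.05. SE is the fold change divided by the square root of F. Where a group had no count, bounds use 3 counts over the group. The test was tried on counts simulated from the WT day 0 profile, with changes in WT day 10 only. No simulated library stood apart as WT day 10 replicates 2 and 3 do, so that setting was not checked. Within-library differences (log2 CPM, prior count 2) were tested by exact permutation with scipy 1.17.1, adjusted over 27 tests. No libraries of 1 group agreed within sampling noise (lowest chi-square per degree of freedom 6.06).

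Members and lists were chosen with earlier results of these data known. Named genes are the 7 members, Pld4, all tested related ligands and receptors, and of each list the 4 with the lowest adjusted p in WT day 10 against day 0 and the 2 in KO against WT at day 10, plus 5 genes nearest to each member. The lists were related ligands and receptors, signal transduction, transcription factors and inducers. Of the cell type markers, the lists named in the report are described.

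Alternatives were DESeq2 1.42.0, RLE factors, all genes kept, a filter that asks for 8 libraries with a CPM of 1 or more, limma 3.58.1 on log2(FPKM + 1) with and without a filter (4 libraries with an FPKM of 1 or more), the same with a pseudocount of 0.1, a fit of only the groups compared, a replicate block, each library left out, and, for within-library differences, a prior count of 0.5. Leaving out WT day 10 replicates 2 and 3 was added after seeing the data. What replicates with 1 number have in common is not in the labels. Their deviations from group means correlated above 0.1 in all 4 pairs in 2 of the 9 comparisons of 2 groups, WT day 10 against WT day 5 (0.105 to 0.361) and KO against WT at day 10 (0.141 to 0.306).

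Sequences are from RefSeq on GRCm38.p6, which is not the build of the counts.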

Additional observations from a re-analysis of the deposited data

Results flagged for a closer look

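In groups of 4, a library was listed where its gap to the next exceeded the share of the group's range that Dixon's test allows at 95%. This met 3 of 56 groups looked at, and chance lists about 1 in 20. Csf2ra was 31.6 CPM in KO day 5 replicate 1, against 14.99 to 16.3 CPM in the other 3 libraries of that group. Csf3 was 0.414 CPM in WT day 5 replicate 3, which is 6 counts against 2 or 3 in the others. Csf2rb minus the macrophage score was -0.44 in WT day 0 replicate 4, with the other 3 all at -0.83.

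The response of Csf2rb to 10 days of obstruction differed between the genotypes by a test of the difference itself, at -3.68 (KO minus WT, adjusted p = 0.0145 with edgeR's quasi-likelihood test). In WT the rise was 5.48 and in KO 1.80, on the log2 scale. WT day 10 replicates 2 and 3, at 248 and 357 CPM, were also the libraries with 4056 and 6535 CPM of neutrophil markers, and without them the value was -1.04 (adjusted p = 0.107).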

How the results depend on the processing

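No fold change of a member that had passed the threshold changed sign under any alternative. The alternatives gave 1183 member fold changes, whether or not the main fit had called them. Of these 1093 stayed on their side of the threshold, 40 passed it newly and 50 no longer did. The 279 within-library values are not counted here, since none of the main within-library tests passed. The smallest p of 4 against 4 libraries in the permutation test, 0.0286, adjusted to 0.0551 there. The number of members called changed by over 1.5 times in these cases. For KO day 5 against KO day 0 (2 called) it was 4 with limma on log2(FPKM + 1), filtered or not, 5 with log2(FPKM + 0.1), 4 with only the groups compared and 4 without WT day 10 replicates 2 and 3. Over all genes, 3381 of 15080 were called higher in the main fit, against 8217 of 13588 with filtered limma on log2(FPKM + 1). With only the groups compared it was 3421 of 14234, and without the 2 libraries 3992 of 15294. For WT day 10 against WT day 5 (5 called) it was 2 with either FPKM pseudocount, 3 with no FPKM filter, and 0 with only the groups compared or without the 2 libraries. Those last 2 fits called 0 of 14676 and 0 of 15294 genes, and filtered limma on log2(FPKM + 1) called 645 of 13588 higher. For KO against WT at day 0 (0 called) it was 1 with DESeq2 and 2 with only the groups compared or without the 2 libraries. For KO against WT at day 10 (1 called) it was 2 with no low-count filter or DESeq2, and 0 in the 3 FPKM fits, with only the groups compared, with the replicate block and without the 2 libraries. DESeq2 called 473 of 15080 genes here, and filtered limma on log2(FPKM + 1) 41 of 13588. With only the groups compared it was 0 of 14761, with the block 19 of 15080 and without the 2 libraries 69 of 15294. For the interaction at day 10 (1 called) it was 2 with DESeq2 and 0 in the 3 FPKM fits, with only the groups compared and without the 2 libraries. DESeq2 called 849 of 15080 genes in this interaction, and filtered limma on log2(FPKM + 1) 1 of 13588. With only the groups compared it was 2 of 14924, and without the 2 libraries 153 of 15294. The cause was not tested.

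With each library left out in turn the count was 4 in WT day 5 against day 0, 6 to 7 in WT day 10, 2 in KO day 5, 4 to 5 in KO day 10, 2 to 6 in WT day 10 against WT day 5 and 0 in KO day 10 against KO day 5. It was 0 to 1 between genotypes at day 0 and at day 5, 0 to 5 at day 10, 0 in the day 5 interaction and 1 to 4 in the day 10 interaction. With the replicate block, Csf3 in KO day 10 against KO day 0 passed (adjusted p = 0.0464), Csf2rb at day 10 between genotypes did not, and no other call of a member changed. The block cut the calls over all genes between genotypes at day 10 from 212 to 19.

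On log2(FPKM + 1) the median gene moved by 0.53, 0.53, 0.47 and 0.51 in WT day 5, WT day 10, KO day 5 and KO day 10 against day 0, and by 0.12, 0.10 and 0.13 between genotypes at days 0, 5 and 10. The share of calls that were higher went from 54.7% to 90.2%, 55.5% to 80.2%, 56.8% to 95.5% and 52.1% to 88.2% in the UUO comparisons, from 72.9% to 44.9% in WT day 10 against day 5, and from 45.5% to 67.3% and 9.91% to 87.8% between genotypes at days 5 and 10. Csf2 and Csf3 had no count at day 0, so depth gives only lower bounds for their rise.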
